A study of Mus musculus with 8 samples.

Results

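The cytosolic ribosomal protein genes encode the protein part of the ribosome that works in the cytoplasm. They were chosen by symbol, as Rpl or Rps followed by digits and at most 1 trailing letter a, l or x, together with Rplp0, Rplp1, Rplp2 and Rpsa. Of 81 such symbols among the 23100 genes of the count table, 74 had a mean of 50 or more counts over the libraries, and these 74 genes are described here. They comprise 43 genes of the large and 31 genes of the small subunit.

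The libraries came from Min6, a mouse insulinoma cell line that keeps properties of pancreatic beta cells. Cultures were transfected by Lipofectamine with pRK5-Zac1, which expresses the zinc finger transcription factor Zac1 (gene symbol Plagl1), or with pRK5-NLSeGFP, which expresses a nuclear green fluorescent protein and served as the negative control. Total RNA was taken 16 h later and sequenced as stranded mRNA libraries, in 4 libraries per plasmid, numbered 1, 2, 3 and 5 in both groups. The series asks which genes Zac1 acts on, and its design text speaks of biological replicates. All groups are transient transfections of 1 cell line with overexpressed protein, and the share of cells that took up a plasmid is not given in the sources used here. No untransfected culture is among the samples, so a change shared by both plasmids cannot be seen.

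Each ribosome has a small subunit, which reads the mRNA, and a large subunit, which joins the amino acids. The proteins are needed in near equal amounts, and cells keep their synthesis in step partly through the start of the mRNAs, a run of pyrimidines called the terminal oligopyrimidine tract, through which the mTOR kinase controls translation of these mRNAs together. Beta cells make large amounts of insulin and depend on this machinery, and free ribosomal proteins such as Rpl5 and Rpl11 can bind Mdm2, the ubiquitin ligase that degrades p53.

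The libraries held 30.5 to 42.4 M (mega) counts. Plagl1 was at 77.7 ± 7.38 CPM (counts per M of the TMM-scaled library total; mean ± SD, n = 4) with the control plasmid and at 4630 ± 777 CPM with pRK5-Zac1, as the labels state. All 19 beta cell markers examined exceeded 1 CPM, and their summed level was 68612 to 85383 CPM in the controls and 70940 to 79017 CPM in the Zac1 libraries. Of 12 markers of immune, stromal and endothelial cells, 2 were at 0 in all libraries and 2 exceeded 1 CPM, with sums of 7.96 to 9.04 and 7.35 to 9.48 CPM. Of 14 markers of other islet and pancreatic cells, 1 was at 0 and 2 exceeded 1 CPM, with sums of 1244 to 1682 and 1338 to 2129 CPM. The glucagon gene Gcg made up nearly all of that sum, at 1238 to 1677 CPM in the controls and 1331 to 2124 CPM with Zac1.

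The 74 genes together took about the same share of each library. The share was 3.14, 3.03, 3.21 and 2.86% in control libraries 1, 2, 3 and 5 and 3.07, 2.89, 2.95 and 2.91% in the Zac1 libraries of the same numbers. The groups overlapped, since the lowest share of all was that of control library 5. The mean share was 3.06 ± 0.153% in the controls and 2.96 ± 0.0781% with Zac1 (SD, n = 4). In bulk RNA of this kind, fewer cells with high levels and less RNA per cell cannot be told apart. Counts in large subunit genes were 1.42, 1.44, 1.43 and 1.46 times those in small subunit genes in control libraries 1, 2, 3 and 5 and 1.44, 1.45, 1.45 and 1.48 times in the Zac1 libraries. The groups overlapped, with means of 1.44 ± 0.0183 and 1.45 ± 0.0176 (SD, n = 4).

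**Figure D1:**
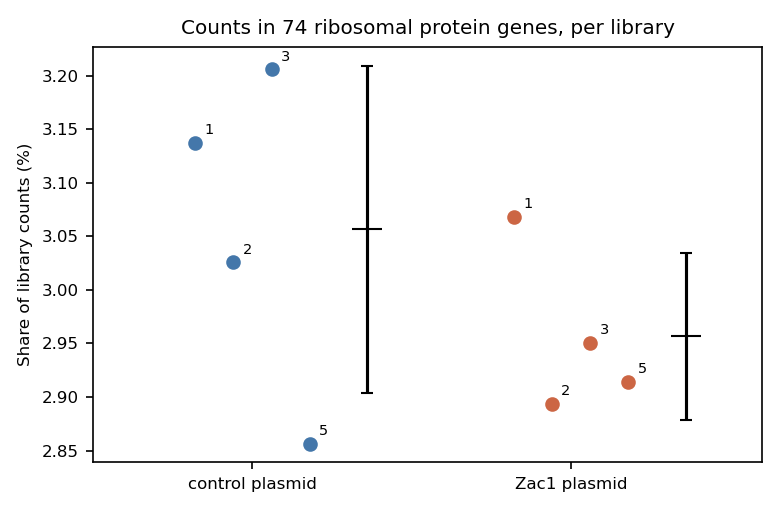
Share of library counts (%) taken by the 74 ribosomal protein genes, 1 point per library with its replicate number, with the mean and SD of the 4 libraries beside each group; the axis does not start at 0. Control library 5 (2.86%) lies below all Zac1 libraries, and control library 3 (3.21%) lies highest.

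Levels per length differed widely between the genes. Per kilobase of transcript, the control mean was highest for Rpl41, a very short protein of the large subunit, at 2318 CPM per kilobase. It was followed by Rpl10, which sits near the peptidyl transferase centre, at 1828, Rps14 at 1643 and Rps4x, encoded on the X chromosome, at 1219 CPM per kilobase. At the other end stood Rpl12, which lies at the base of the stalk, at 119, Rpl36 at 114, Rpl27a at 107, Rps26, which lies at the mRNA exit, at 106 and Rps20 at 31.9 CPM per kilobase. The only complete Rps20 model used for the length has 3706 bases for a 360-base coding sequence, so its value per length is low by construction. The models used for Rpl12 and Rpl27a have 1242 and 1158 bases for coding sequences of 498 and 447 bases. Their values per length are also lowered by these lengths.

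**Figure D2:**
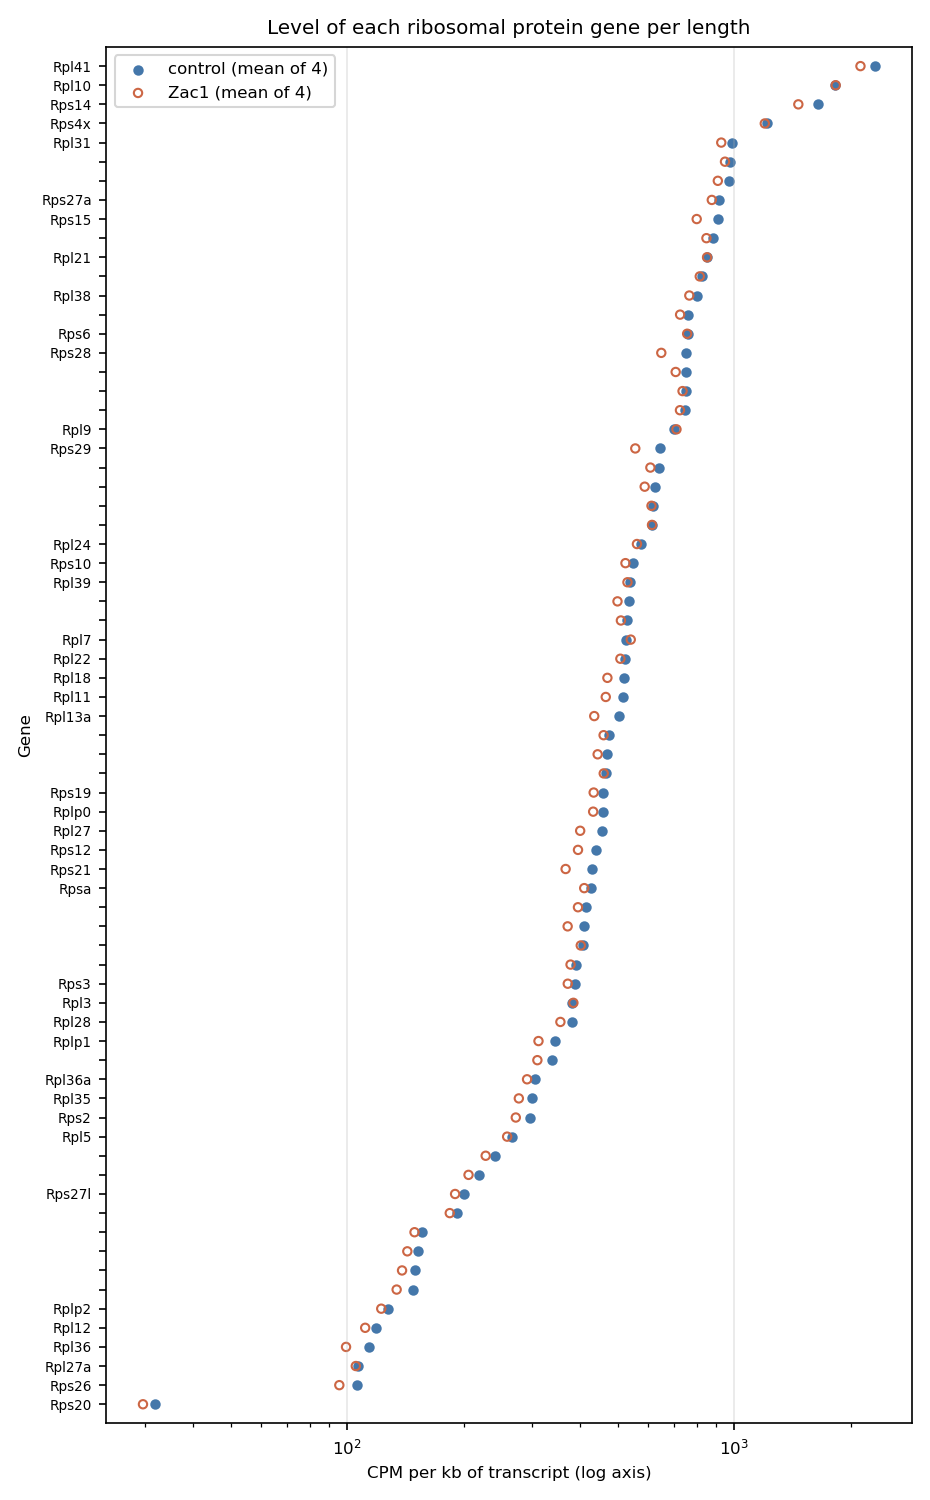
Mean level of 71 of the 74 genes in CPM per kilobase of transcript (log axis), filled for control and open for Zac1, ordered by the control mean, with names for the genes the text describes. Levels run from Rpl41 at 2318 to Rps20 at 31.9 CPM per kilobase in the controls, and each gene's pair of points lies close together.

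Ribosomal protein genes have many processed pseudogene copies, and the counts carry that uncertainty. The share of a transcript's 50-base windows found in transcripts of other annotated genes was 2.96% for Rps3, 92.1% for Rpl10 and 92.4% for Rps10. Levels of genes with a high share are uncertain, since reads that match several places may have been dropped or split. Among the genes under the minimum count, Rps27 had a mean of 20.8 counts and shared 98.6% of its windows, Rpl30 had 27.6 counts and shared 47.8%, and Rpl34 had 31.9 counts and shared 50.6%. Rpl26, a core protein of the large subunit, was listed at 0 in all libraries and shared 71.3%. The other 3 genes under the minimum were Rpl3l with a mean of 9.63 counts, Rpl39l with 3.5 and Rpl10l with 0, all close relatives of core genes. The lowest values above the minimum were 1493 counts for Rpl36, 1933 for Rplp2 and 2508 for Rps26, so no gene lay close to it.

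Start regions of 5 members are printed to show what the genes share, and differ in, at the tract where their translation is controlled. Each runs from 80 bases before to 10 bases from the annotated start, from RefSeq on GRCm38.p6, in the direction of transcription. Capitals mark CTCTTT or CTTTCC, pyrimidine letters of the kind found at terminal oligopyrimidine starts, on the gene's strand, and CCGGAAG, the core bound by ETS factors such as GABPA, on either strand. Rps6 lies at chr4:86857358-86857447 (minus strand), Rpl28 at chr7:4792885-4792974 (plus), Rpl18 at chr7:45717991-45718080 (plus), Rpl38 at chr11:114668500-114668589 (plus) and Rps28 at chr17:33824553-33824642 (minus).
Rps6: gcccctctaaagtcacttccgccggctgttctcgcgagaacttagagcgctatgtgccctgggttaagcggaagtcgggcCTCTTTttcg
Rpl28: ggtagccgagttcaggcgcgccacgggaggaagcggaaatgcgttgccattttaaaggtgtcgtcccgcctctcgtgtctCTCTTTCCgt
Rpl18: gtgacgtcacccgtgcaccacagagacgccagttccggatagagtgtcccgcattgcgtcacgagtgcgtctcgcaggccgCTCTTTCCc
Rpl38: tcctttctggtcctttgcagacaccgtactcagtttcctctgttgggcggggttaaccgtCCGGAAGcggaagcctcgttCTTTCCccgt
Rps28: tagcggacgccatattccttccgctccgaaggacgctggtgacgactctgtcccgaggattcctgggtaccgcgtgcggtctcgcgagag

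In Rps6, Rpl28, Rpl18 and Rpl38 the pyrimidine letters lie at the start itself, while the Rps28 stretch holds none of the 3 motifs. Of the 74 genes, 55 matched an entry of the RefSeq table, whose windows hold 250 bases before and 50 bases after the start. On the gene's strand and within 50 bases of the start, CTCTTT was found in 18 of the 55 (32.7%) and in 4.68% of 27025 genes, and CTTTCC, which overlaps CTCTTT where both occur as CTCTTTCC, in 16 (29.1%) and 5.43%. Over the whole window and both strands, CTCTTT was in 49.1% of the 55 and 25.6% of all genes, and CTTTCC in 50.9% and 29.3%. CCGGAAG was in 23 of the 55 (41.8%) and in 9.93% of all. The YY1 core CCATNTT was in 29.1% and 18.2%, the GC box GGGCGG in 63.6% and 38.2%, and the TATA box TATAAA in 10.9% and 15.7%. These are matches of letters in a window and were not tested.

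No ribosomal protein gene passed the test between the plasmids in the fit on the group alone. In edgeR's quasi-likelihood test over 14331 genes, 0 of 74 were called higher, where 2.15% of all tested genes were, and 0 were called lower, where 0.0349% were (2.18% in either direction), at a Benjamini-Hochberg adjusted p threshold of 0.05. Among the 5191 tested genes with at least the mean count of Rpl36, the lowest of the 74, 0.135% were called higher and 0% lower. The smallest adjusted p among the 74 was 0.527 (edgeR), for Rps2. At an unadjusted p under the same level, 5 genes had lower and 0 higher values with Zac1, where 1.93% and 5.65% of all tested genes and 2.39% and 1.23% of the 5191 did. DESeq2 also called 0, with 7 lower values at an unadjusted p under that level, and limma-voom called 0, with 5. The number at that unadjusted level moved with single libraries, with the scaling and with a replicate term. It was 0 under library totals and 3 with TMM factors computed without the 74 genes. It was 0 without control library 1, control library 3 or Zac1 library 2, 1 without control library 2, 2 without Zac1 library 3 or 5, 9 without Zac1 library 1 and 16 without control library 5. It was 4 without both libraries numbered 1, 0 without both numbered 2 or 3 and 14 without both numbered 5. It was 28 with the replicate number as a term in the fit, and 20 with that term and library totals. At the adjusted threshold, that term gave 9 of the 74 called lower, where 0.809% of all tested genes were.

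The fitted values lay mostly just below 0. The log2 fold change (Zac1 minus control) was below 0 in 69 of 74 genes, 38 of 43 in the large subunit and 31 of 31 in the small subunit. Of all tested genes 54.2% were below 0, and of the 5191 of at least Rpl36's mean count 61.9% were. The median log2 fold change was -0.07 for the 74 genes (quartiles -0.12 and -0.04), -0.07 for the large and -0.08 for the small subunit, beside -0.01 for all tested genes and -0.02 for the 5191. Without control library 3 the median of the 74 was -0.034. The genes share libraries and reads of similar sequences, so their signs are not independent. The 5 values above 0 belonged to the large subunit proteins Rpl7 (0.04), Rpl9 (0.02), Rpl3 (0.01), Rpl21 (0.0030) and Rpl10 (0.0023).

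The intervals were narrow for most genes. The SE of the log2 fold change ran from 0.04 to 0.35, and the 95% interval lay within 0.5 of 0 in 66 genes and within 0.25 of 0 in 47. The 8 genes with wider intervals were Rps21, Rps29, Rpl13a, Rpl36, Rpl27, Rps12, Rps26 and Rplp1. The outermost bounds were -1.04 and 0.65, both of Rpl36.

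**Figure D3:**
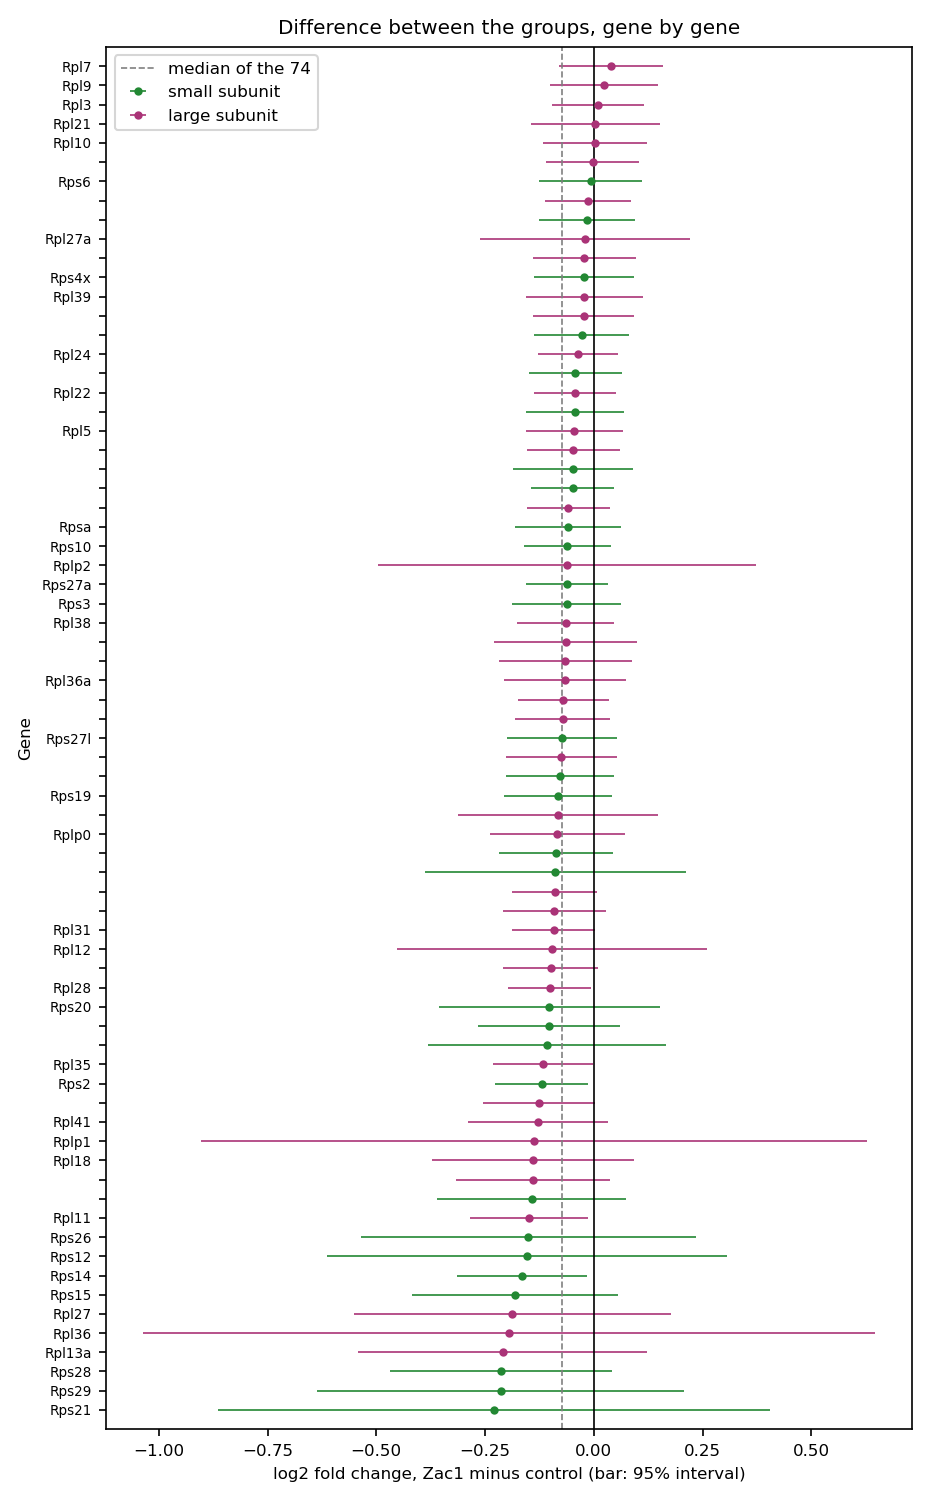
Fitted log2 fold change of 71 of the 74 genes (Zac1 minus control) with its 95% interval, coloured by subunit, with a dashed line at the median of the 74 (-0.07). Fitted values run from Rps21 at -0.23 to Rpl7 at 0.04, and the longest bar is that of Rpl36.

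Rpl31, a protein at the rim of the exit tunnel, was the only gene of the 74 whose groups did not overlap. Its values were 477, 472, 504 and 472 CPM in control libraries 1, 2, 3 and 5 and 459, 459, 433 and 455 CPM in the Zac1 libraries. Every Zac1 library was thus below every control library, by a small margin (log2 -0.09 ± 0.04, SE; edgeR adjusted p = 0.696). Among all tested genes, 1.4% had groups apart with Zac1 lower, and 4.39% with Zac1 higher. Among the 5191 genes, 1.79% had groups apart with Zac1 lower, beside 1 of the 74 here.

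The values furthest below 0 came from genes that varied strongly within groups. Rps21, a small protein of the small subunit, was at 174, 163, 222 and 120 CPM in control libraries 1, 2, 3 and 5 and at 173, 123, 183 and 100.1 CPM in the Zac1 libraries. The groups overlapped widely, with library 3 highest and library 5 lowest in both (log2 -0.23 ± 0.26, SE; edgeR adjusted p = 0.957). Rps29, a zinc-binding protein of the small subunit, was at 254, 256, 305 and 190 CPM in the controls and at 251, 185, 254 and 177 CPM with Zac1 (log2 -0.21 ± 0.18; edgeR adjusted p = 0.932). Rps28 was at 204, 194, 244 and 174 CPM in the controls and at 197, 155, 193 and 158 CPM with Zac1 (log2 -0.21 ± 0.11; edgeR adjusted p = 0.772). Each of these genes had control library 3 highest and control library 5 lowest of its group. Rpl13a, known also for a role outside the ribosome in silencing inflammatory mRNAs, was at 544, 504, 610 and 450 CPM and at 539, 420, 512 and 353 CPM (log2 -0.21 ± 0.14; edgeR adjusted p = 0.886). Its groups overlapped, with library 5 lowest in both. With the replicate number as a term, Rpl13a, Rps28 and Rps21 were called lower (edgeR adjusted p = 0.00289, 0.00295 and 0.00639). Rps29 was not (edgeR adjusted p = 0.0956). Each of these 4 values changed in size when 1 library was left out, and each stayed below 0. Without control library 3, Rps21 was at -0.068, Rps29 at -0.10, Rps28 at -0.11 and Rpl13a at -0.126. Without Zac1 library 5, Rps21 was at -0.081, Rps29 at -0.12 and Rpl13a at -0.098. With each of the 8 libraries left out in turn, the lowest values were -0.36 for Rps21 (without Zac1 library 3), -0.32 for Rps29 and -0.28 for Rps28 (without control library 5) and -0.30 for Rpl13a (without Zac1 library 1).

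Of the 5 genes with the smallest unadjusted p, Rps2, at the mRNA entry of the small subunit, was at 301, 307, 299 and 277 CPM in the controls and at 284, 265, 282 and 259 CPM with Zac1 (log2 -0.12 ± 0.05; edgeR adjusted p = 0.527). Only control library 5 lay within the range of the Zac1 libraries. Rps14 was at 1057, 945, 1039 and 883 CPM in the controls and at 972, 889, 841 and 799 CPM with Zac1 (log2 -0.16 ± 0.07; edgeR adjusted p = 0.556). Rpl28 was at 297, 288, 299 and 295 CPM and at 289, 277, 268 and 265 CPM (log2 -0.10 ± 0.04; edgeR adjusted p = 0.592), and only Zac1 library 1 reached the control range. Rpl35 had a log2 fold change of -0.12 ± 0.05 (edgeR adjusted p = 0.645), at 285 ± 18.3 and 263 ± 11.1 CPM.

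Rpl5 and Rpl11, which form a particle with 5S rRNA and bind Mdm2 when free, were examined with the genes of that response. Rpl11, the fifth of these genes, was at 438, 428, 470 and 387 CPM in control libraries 1, 2, 3 and 5 and at 412, 384, 403 and 354 CPM with Zac1. The groups overlapped only through control library 5 (log2 -0.15 ± 0.06; edgeR adjusted p = 0.555). Rpl5 was at 596, 511, 543 and 537 CPM and at 546, 532, 509 and 534 CPM, with a log2 fold change of -0.04 ± 0.05 (edgeR adjusted p = 0.956). Mdm2 itself was at 89.1 ± 6.47 and 97.5 ± 9.23 CPM (log2 0.13 ± 0.07; edgeR adjusted p = 0.754). In the fit on the group alone, none of the 27 tested genes of the Mdm2 and p53 response list was called. Their median log2 fold change was 0.04, with 9 below 0. At an unadjusted p under 0.05, 3 of the 27 had higher and 1 had lower values with Zac1, where 5.65% and 1.93% of all tested genes did. Cdkn1a was at 101 ± 2.44 and 112 ± 3.56 CPM (log2 0.15 ± 0.04; edgeR adjusted p = 0.167). Its groups did not overlap, where 4.39% of all tested genes had groups apart with Zac1 higher. Gadd45a was at 133 ± 9.83 and 117 ± 11.3 CPM (log2 -0.18 ± 0.07; edgeR adjusted p = 0.481). Rps27l, a paralog of Rps27 that p53 can induce, was at 99.8 ± 6.96 and 94.9 ± 5.68 CPM (log2 -0.07 ± 0.06; edgeR adjusted p = 0.925).

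The stalk of the large subunit, which recruits the elongation factors, is built of Rplp0, Rplp1 and Rplp2. Rplp0 was at 651, 632, 678 and 530 CPM in the controls and at 616, 554, 624 and 555 CPM with Zac1 (log2 -0.08 ± 0.07; edgeR adjusted p = 0.932). Rplp1 was at 175, 171, 229 and 112 CPM in the controls and at 182, 116, 218 and 107 CPM with Zac1, so that the range within each group covered most of the range over all libraries (log2 -0.14 ± 0.32; edgeR adjusted p = 0.979). Rplp2 was at 51.5, 55.8, 66.2 and 41.9 CPM and at 59.9, 43.3, 62.4 and 40.7 CPM (log2 -0.06 ± 0.19; edgeR adjusted p = 0.984). Library 3 was highest and library 5 lowest in both groups for Rplp1 and Rplp2.

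Other members with roles of their own had values in both groups that overlapped. Rpsa, the small subunit protein also known as a laminin receptor, was at 683 ± 47.6 and 656 ± 30.9 CPM (log2 -0.06 ± 0.06). Rps6, the substrate of the S6 kinases, was at 667 ± 47.3 and 664 ± 23.4 CPM, with a log2 fold change of -0.0068 ± 0.06. Rps3, at the mRNA entry and with a DNA repair activity, was at 741 ± 51.6 and 709 ± 39.1 CPM. Rps19, the gene most often mutated in Diamond-Blackfan anaemia, was at 291 ± 20.9 and 275 ± 15.5 CPM, with a log2 fold change of -0.08 ± 0.06. Rpl38, known for the translation of Hox mRNAs, was at 277 ± 15.7 and 264 ± 12.3 CPM. Rpl10 was at 1460 ± 67.7 and 1463 ± 93.6 CPM. Rps27a, made as a fusion with ubiquitin, was at 582 ± 15.9 and 558 ± 11.7 CPM (log2 -0.06 ± 0.04). Rpl24, at the bridge between the subunits, was at 389 ± 5.39 and 380 ± 11 CPM and had the smallest spread of all 74. Among these the smallest edgeR adjusted p was 0.879.

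Within the groups, the genes of large spread moved together along the libraries. A single axis held 85.5% of the within-group variance of the 74 genes in log2 CPM. The deviations were not scaled by gene, so the genes of large spread weighed most in it. In control library 5, 4 genes lay above and 70 below the mean of their group. In Zac1 library 5 it was 30 and 44, and in Zac1 library 3 it was 35 and 39. Control library 3 was the highest of its group in 50 genes and control library 5 the lowest in 57. In the 20 genes with the largest spread, control library 3 was highest and control library 5 lowest in all 20. Among the Zac1 libraries, library 3 was highest in 14 and library 1 in 6 of these 20, and library 5 was lowest in 15 and library 2 in 5. This order did not extend to all genes, since Zac1 library 5 was the highest of its group in 22 of the remaining 54, among them Rpl21, Rpl39 and Rpl7.

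**Figure D4:**
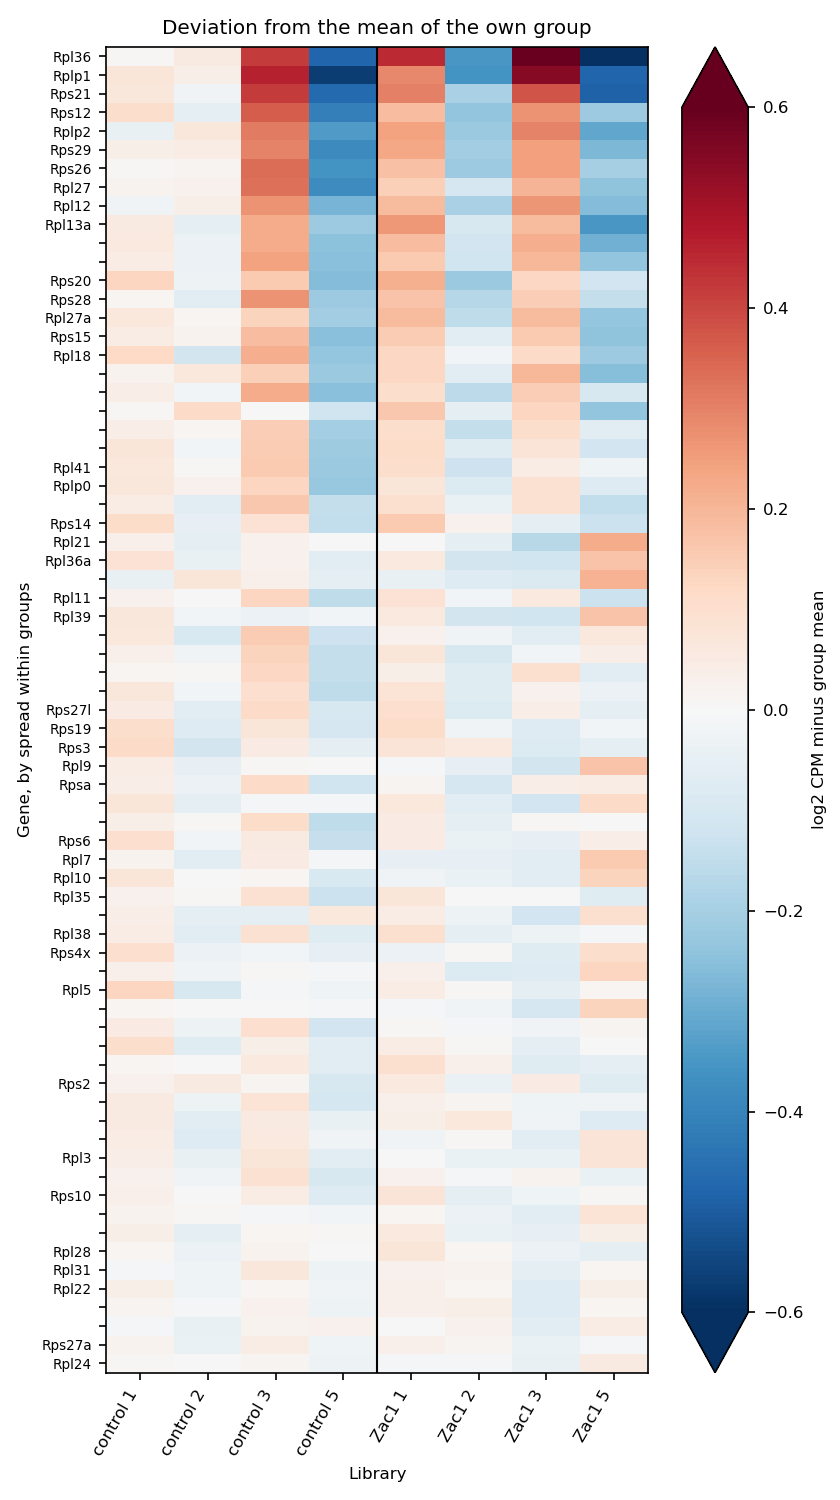
Deviation of log2 CPM from the mean of the own group for 71 of the 74 genes, 1 column per library, genes ordered by their spread within groups; red is above and blue below the mean. The upper genes are red in control 3, Zac1 1 and Zac1 3 and blue in control 5, Zac1 2 and Zac1 5, and Rpl24 at the foot is nearly white.

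The spread differed strongly between genes. The SD of log2 CPM within groups was 0.51 for Rpl36, 0.46 for Rplp1, 0.39 for Rps21, 0.30 for Rps12 and 0.29 for Rplp2, and 0.033 for Rpl24. Rpl36, a small protein of the large subunit, showed it most clearly, at 42.8, 44.2, 57.0 and 30.4 CPM in control libraries 1, 2, 3 and 5 and at 48.7, 27.8, 53.9 and 21.8 CPM in the Zac1 libraries. Its within-group range covered more than its difference between the groups (log2 -0.19 ± 0.35; edgeR adjusted p = 0.973). The median spread was 0.0928 for the 74 genes, 0.109 for all tested genes and 0.0751 for the 5191 of at least Rpl36's mean count. A spread over 0.3 was found in 3 of the 74 and in 0.79% of the 5191. Across the 74 genes, the spread had a Pearson r of -0.60 with the log2 level and 0.30 with the GC content of the transcript, and the log2 fold change an r of -0.64 with the spread and -0.40 with the GC content. These are descriptions across genes of the same libraries, and genes are not independent replicates.

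The correlation of a library's deviations with GC content had the same sign in the members and in all genes in every library except control library 1. The r between a gene's deviation and its transcript GC content was -0.35 over the 74 genes in control library 5, and -0.38 over 13497 genes. It was -0.48 and -0.38 in Zac1 library 5, 0.41 and 0.29 in Zac1 library 3, 0.37 and 0.32 in Zac1 library 1, and 0.34 and 0.20 in control library 3. In control library 2 it was 0.25 and 0.23, in Zac1 library 2 -0.15 and -0.11, and in control library 1 -0.15 and 0.08. Whether GC content has a part in the spread or in the fitted values was not tested.

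Some core proteins have a paralog, and the ratio within a pair does not depend on the scaling of the library. For Rpl22l1 over Rpl22, the log2 ratio differed by -0.09 between the groups (two-sided exact permutation p = 0.343), and for Rpl7l1 over Rpl7 by -0.12 (exact p = 0.0571, 0.286 after adjustment over 5 pairs). The latter ratio was -1.78, -1.84, -1.74 and -1.75 in the controls and -1.82, -1.85, -1.93 and -2.01 with Zac1, so that the groups overlapped. For Rpl36al over Rpl36a the difference was 0.03 (exact p = 0.6). For Rplp1 over Rplp2, which are both parts of the stalk and not replacements of each other, it was -0.09 (exact p = 0.6). The adjusted p was 0.6 for each of these pairs other than Rpl7l1 over Rpl7 (exact test), and the smallest p that the 70 assignments of 4 against 4 allow is 0.0286.

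The rest of the translation machinery held no called gene in the lists examined, in the fit on the group alone. Among 8 other tested ribosome genes, 6 were below 0 and the median log2 fold change was -0.10. They include Rpl3l (log2 0.13), which fits the naming rule but lies under the minimum count. Fau, whose product is cut to the small subunit protein eS30, was at 132, 120, 158 and 92.3 CPM in the controls and at 129, 90.8, 139 and 83.6 CPM with Zac1 (log2 -0.18 ± 0.23; edgeR adjusted p = 0.961). Gnb2l1, the scaffold Rack1 on the small subunit, had a log2 fold change of -0.10 ± 0.10 (edgeR adjusted p = 0.946). Both values lay in the range of the 74 genes.

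Of 11 genes in the elongation list, which holds Eef1e1, Eef2k and Tpt1 beside elongation factors, 0 were called. In that list 9 were below 0, with a median of -0.03. Of 42 initiation genes 34 were below 0 (median -0.03), and of 25 other mRNAs with a terminal oligopyrimidine start 22 were (median -0.03), with 0 called in both lists. Of 87 ribosome biogenesis genes 58 were below 0 (median -0.02), of 23 genes of RNA polymerase I and its factors 13 (median -0.02), and of 22 cytosolic aminoacyl-tRNA synthetase genes 19 (median -0.05), again with 0 called. Of 15 tested snoRNA host genes 6 were below 0 (median 0.02), and of 29 kinases and repressors of ribosomal protein synthesis 15 were (median -0.0066), with 0 called. Mtor was at 88.5 ± 4.61 and 88.8 ± 1.15 CPM (log2 0.0047 ± 0.05; edgeR adjusted p = 0.994). Larp1, which binds the terminal oligopyrimidine tract and represses these mRNAs, was at 253 ± 9.91 and 247 ± 2.24 CPM (log2 -0.04 ± 0.04; edgeR adjusted p = 0.958). At an unadjusted p under 0.05, the elongation list had 2 lower and 1 higher, and the initiation list 2 lower. The oligopyrimidine, biogenesis and synthetase lists had 1 lower each. Of all tested genes, 1.93% had lower and 5.65% higher values at that level. Below 0 lay 54.2% of all tested genes and 61.9% of the 5191. The lists share genes, since Eef2, Tpt1 and Fau stand in the oligopyrimidine list and in another, so their counts are not separate.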

How the data were processed

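The authors deposited raw counts, as whole numbers for each gene. Per the submitters' processing notes, bcl2fastq 2.17, FastQC, TopHat2 2.1.1, Bowtie2 2.2.8, HTSeq 0.6.1p1 and the build mm9 were used; not given in the sources used here are the annotation, the strand setting and the treatment of reads that match several places. From these counts, edgeR 4.0.16 in R 4.3.3 was run on 14331 genes kept by filterByExpr, with TMM scaling, a robust quasi-likelihood F test on the group, and Benjamini-Hochberg adjustment over all tested genes. DESeq2 1.42.0 and limma 3.58.1 (voom) were alternatives, with other scalings, no filter, a replicate term, and libraries left out. The fit was tested on simulated data. P-values of the fits set the difference between the groups against the spread between these libraries. Libraries of a group differed beyond counting noise (chi-square over its degrees of freedom 8.99 to 30.5), and each was counted as 1 sample. Transcript length, GC content and shared windows came from GENCODE M21 (GRCm38), start windows from RefSeq. Spread within groups was taken on log2(CPM + 0.5), and paralog ratios with a prior count of 0.5. The genes and lists were chosen with earlier results of these data known. The members named are those called with or without the replicate term, the 5 furthest from 0 in each direction, the 5 highest and lowest per length, those of largest spread, paralog pairs, and those with a role of their own; Rps2, Rpl28, Rpl31, Rpl35 and Rps10 and the related genes named were chosen after their values were seen. A few genes are not reported here, and 3 of the 74 are left out of the plots by gene; they stay in all counts and medians.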

Additional observations from a re-analysis of the deposited data

Results flagged for a closer look

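Of 82 groups of 4 libraries checked, 2 held a library far from its fellows, and chance alone marks about 1 group in 20. Rpl39 was at 345 CPM in control library 1, against 322 to 326 CPM in the other control libraries, a gap of 0.839 of the range. Rpl7 was at 699.9 CPM in Zac1 library 5, against 602 to 607 CPM in the other Zac1 libraries, a gap of 0.943 of the range. Without both libraries numbered 5, the log2 fold change of Rpl7 was -0.01 in place of 0.04.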

How the results depend on the processing

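The 0 calls among the 74 genes, in each direction, held under other scalings, DESeq2, limma-voom, no filter and each library left out. With a replicate block (the replicate number as a term), 9 of them were called lower, among them Rpl13a, Rps28, Rps15, Rps21, Rps14, Rpl27, Rpl11 and Rpl18. The block called 0.809% of all tested genes lower and 3.57% higher. With the block and library totals, 6 of the 74 were called lower, the first 6 named, where 45 of 14331 tested genes were. The block called 628 of all tested genes, and 591 with library totals, in place of 313. In the related lists the block called 1 of the 8 other ribosome genes (Fau) and 3 of 11 genes of the elongation list (Eef2, Tpt1, Eef2k). It called 3 of 25 oligopyrimidine mRNAs (Eef2, Tpt1, Fau) and 4 of 27 of the p53 list (Cdkn1a, Gadd45a, Trp53inp1, Plk2). The calls did not share a direction. In the fit on the group alone Eef2k and Cdkn1a lay above 0, and Eef2, Fau and Gadd45a below. Deviations of same-numbered libraries had an r of 0.398, 0.0569, 0.234 and 0.433 over all tested genes for numbers 1, 2, 3 and 5. Over the 74 genes it was 0.078, -0.387, 0.912 and 0.857. Control library 2 was closest to Zac1 library 3 and Zac1 library 2 to control library 5, and the others to their own number. The low r of number 2 does not show that its cultures were unpaired. Since the libraries numbered 2 did not deviate together, the numbers were not taken to pair the samples. The planned test of differences between numbers was therefore not read. The fit on the group alone thus left variation shared by same-numbered libraries in its residual spread. Whether the 74 genes held 0 or 9 lower calls rested on that choice.

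With 1 library left out, all tested genes called ran from 262 to 362, and 205 were called without both libraries numbered 1. The median log2 fold change of the 74 genes ran from -0.10 to -0.034, and the number of values below 0 from 60 (without Zac1 library 3) to 70; it was 74 without both libraries numbered 5, and 65 under library totals. For 40 named members under all alternatives, 739 of 800 values kept sign and side, and 46 changed sign in 14 members. Rpl21 was -0.0037 in limma-voom and -0.0038 with the block, and Rps6 0.012 with library totals and 0.0137 with the block and library totals. With 1 library left out, the log2 fold change ran from -0.037 to 0.032 for Rpl10, -0.19 to 0.0056 for Rpl12, -0.071 to 0.056 for Rpl21, -0.086 to 0.059 for Rpl27a, -0.0098 to 0.039 for Rpl3, -0.41 to 0.0054 for Rpl36, -0.076 to 0.018 for Rpl39 and -0.069 to 0.0053 for Rpl5. It ran from -0.0091 to 0.062 for Rpl7, -0.031 to 0.060 for Rpl9, -0.34 to 0.037 for Rplp1, -0.17 to 0.058 for Rplp2, -0.051 to 0.019 for Rps4x and -0.043 to 0.032 for Rps6. Without both libraries numbered 5, Rpl10 was -0.066, Rpl21 -0.071, Rpl3 -0.031, Rpl7 -0.010 and Rpl9 -0.031. Without both numbered 2, Rpl27a was 0.038, Rpl39 0.015, Rplp2 0.037 and Rps6 0.0067. Without both numbered 3, Rpl39 was 0.0071 and Rps6 0.027, and without both numbered 1, Rps4x was 0.030 and Rps6 0.015. The paralog ratio of Rpl7l1 over Rpl7 ran from -0.15 (without Zac1 library 1, exact p = 0.0286, the smallest possible) to -0.090, and that of Rpl36al over Rpl36a from -0.0097 to 0.071. The cause of these changes was not tested.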

Other observations

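The order of libraries seen in the ribosomal protein genes of large spread also appeared in some genes outside them, chosen after their values were seen. Eef2, the elongation factor that moves the ribosome along the mRNA, was at 1496, 1460, 1587 and 1214 CPM in control libraries 1, 2, 3 and 5 and at 1420, 1206, 1518 and 1068 CPM in the Zac1 libraries (log2 -0.14 ± 0.11, SE; edgeR adjusted p = 0.925). Library 3 was highest and library 5 lowest in both groups, as in Rplp1 and in Fau. Eef1a1, which brings the aminoacyl-tRNA, had another order, with 4721, 4436, 4308 and 4866 CPM in the controls and 4551, 4542, 4195 and 4843 CPM with Zac1, so that library 5 was highest and library 3 lowest in both groups (log2 -0.02 ± 0.06; edgeR adjusted p = 0.984).

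Eef2k, the kinase that inhibits Eef2, was at 14.2, 12.2, 12 and 11.4 CPM in the controls and at 17.2, 15.7, 14.3 and 13.1 CPM with Zac1 (log2 0.27 ± 0.10; edgeR adjusted p = 0.347). Tpt1, whose mRNA has a terminal oligopyrimidine start, was at 584, 521, 515 and 511 CPM and at 519, 469, 499 and 445 CPM (log2 -0.14 ± 0.06; edgeR adjusted p = 0.541). In both genes the groups overlapped.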
